A study of Mus musculus with 4 samples.

Results

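Immunoglobulin and plasma cell genes were followed across 4 mouse liver sections measured by Visium spatial transcriptomics, in which a tissue section lies on an array of barcoded spots and the unique molecular identifiers (UMIs) of each gene are counted per spot. The 8 genes, of 32285 listed, were taken by symbol: the heavy chain constant genes Ighm, Ighg1, Ighg2b, Ighg2c and Igha, the kappa light chain constant gene Igkc, and the plasma cell genes Jchain and Mzb1. They were chosen with their levels in these sections known, so their levels, class shares and positions are given as descriptions with no test. All 8 had at least 1 UMI in STAM20w and DEN30w, and 6 of the 8 in STAM16w and DEN22w.

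The study followed liver tumour formation in a pair of mouse models. STAM, labelled at 16 weeks (STAM16w) and 20 weeks (STAM20w), is a metabolic model of fatty liver disease with type I diabetes, made with streptozotocin and a high-fat diet. DEN+CCl4 (DEN+CCL4 in the labels), labelled at 22 weeks (DEN22w) and 30 weeks (DEN30w), joins the mutagen diethylnitrosamine with the fibrosis-inducing toxin carbon tetrachloride. There was 1 frozen section per model and time and no untreated liver; the sources used here do not give the animals' strain, sex or number, or say whether the weeks are an age or a time from the first treatment. Model, time, animal and section therefore cannot be told apart, and the intervals below cover counting error only.

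B cells join a heavy chain to a light chain to make an immunoglobulin, and the constant gene joined to the heavy chain sets its class. A B cell starts with IgM, from Ighm, and can switch to IgG or IgA by deleting the DNA between constant genes. Plasma cells, the end stage of this lineage, fill much of their messenger RNA with the transcripts of 1 heavy and 1 light chain. Jchain encodes the joining chain that links IgM and IgA into polymers, and Mzb1 encodes a chaperone of the endoplasmic reticulum that helps assemble and secrete immunoglobulin.

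In the RefSeq annotation of GRCm38.p6, which matched all 8 symbols, the 5 heavy chain genes lie within 166.5 kb of chromosome 12. Igha spans 113256204 to 113260236, Ighg2c 113287389 to 113288932, Ighg2b 113304314 to 113307933, Ighg1 113326541 to 113330523 and Ighm 113418826 to 113422730, and all 5 are constant-region segments. Igkc (6, 70726435 to 70726754) is the constant segment of the kappa locus, and Jchain (5, 88519809 to 88527897) and Mzb1 (18, 35647265 to 35650266) are ordinary protein-coding genes. The promoter table of the same build held Jchain. Its sequence, chr5:88527848-88528147 on the minus strand, is shown because Jchain UMIs lay in the immunoglobulin-rich spots described below; it runs from 250 bases before the gene's start to 50 bases from the start on, and capitals mark a CACCTG E-box, a motif of the kind bound by E2A factors.

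Jchain promoter: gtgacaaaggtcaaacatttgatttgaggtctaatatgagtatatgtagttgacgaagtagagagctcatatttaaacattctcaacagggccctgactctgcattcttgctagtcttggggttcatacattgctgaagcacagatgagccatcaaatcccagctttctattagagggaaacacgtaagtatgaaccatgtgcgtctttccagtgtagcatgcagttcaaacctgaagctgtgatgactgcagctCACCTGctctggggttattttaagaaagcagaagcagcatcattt

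This motif, searched on both strands as CACCTG and CAGGTG, starts at +6 in the window and occurs in 20.2% of 32851 promoters of the same length. The PU.1-type core GAGGAA (28.3% of promoters) and the octamer ATGCAAAT (1.74% of promoters), also searched on both strands and at no overlap with the E-box, had no match in it.

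After spots under 500 UMIs or 250 genes were left out, 2080 to 2968 spots a section remained, with 20700642 to 40008457 UMIs in all and a median of 7302.5 (DEN22w) to 12761 (STAM20w) UMIs per spot. A spot can hold several cells, so values are levels of a spot and not of a cell, and fewer plasma cells cannot be told apart from less RNA per plasma cell. Spot barcodes are printed alike on every array, and 1136 of them lay under tissue in all 4 sections. Some markers of B lineage cells were sparse: Ms4a1 had 12, 8, 9 and 9 UMIs in STAM16w, STAM20w, DEN22w and DEN30w, and the plasma cell receptor gene Tnfrsf17 had 1, 1, 0 and 4. Others had more, among them Cd22 with 32, 72, 54 and 122 UMIs and Cd79a with 54, 38, 53 and 73. The constant chain genes, in contrast, had up to 13154 UMIs in a section.

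Immunoglobulin RNA was highest in DEN30w for every one of the 8 genes. Levels below are UMIs per 1000000 UMIs of the section (CPM, counts per 1000000), with exact Poisson 95% intervals. The assay counts captured molecules near their 3′ end, so no correction for gene length was made. The 6 chain genes together reached 876 CPM (30567 UMIs) in DEN30w, 82.0 (79.3 to 84.9) in STAM20w, 34.3 (31.8 to 36.9) in STAM16w and 18.2 (16.5 to 20.1) in DEN22w. The 4 intervals were apart, and DEN22w, the lower section of its model, was also the lowest of all 4.

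Ighm, the heavy chain of IgM, was at 63.3 CPM (2208 UMIs) in DEN30w, 18.4 (735) in STAM20w, 13.2 (273) in STAM16w and 6.99 (157) in DEN22w, and all 4 intervals were apart. Igkc, the constant part of the kappa light chain, kept that order of sections with 377 CPM (13154 UMIs), 39.0 (1559), 18.3 (379) and 9.88 (222), again with no overlap. These were the chain genes seen in every section in at least 100 UMIs.

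The switched heavy chain genes differed far more between sections. Ighg1, an IgG class, had 0 UMIs in STAM16w (3 UMIs would be 0.145 CPM), 17 UMIs or 0.425 CPM in STAM20w, 0 in DEN22w (3 UMIs would be 0.134 CPM) and 2854 UMIs or 81.8 CPM in DEN30w. Ighg2b, the next IgG class on the chromosome, had 0 UMIs in STAM16w, 953 UMIs or 23.8 CPM in STAM20w, 3 UMIs or 0.134 CPM in DEN22w and 5876 UMIs or 168.5 CPM in DEN30w. Ighg2c had 36 UMIs or 1.74 CPM in STAM16w, 4 UMIs or 0.09998 CPM in STAM20w, 0 in DEN22w and 5529 UMIs or 158.5 CPM in DEN30w. Thus each earlier section held at most 1 of the 3 IgG genes above 3 UMIs, STAM20w held all 3 at very unequal levels, and DEN30w held all 3, with 2854 to 5876 UMIs each. The IgG genes are related in sequence, and the sources used here do not state how reads were divided between them. Their split is given as counted, and the part of read assignment in it was not tested.

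Igha, the heavy chain of IgA, was at 1.06 CPM (22 UMIs), 0.350 (14), 1.25 (28) and 27.1 (946) in STAM16w, STAM20w, DEN22w and DEN30w. STAM16w and DEN22w overlapped in their intervals, while STAM20w lay below both. Jchain was at 16.03 CPM (559 UMIs) in DEN30w, 2.02 (81) in STAM20w, 0.846 (19) in DEN22w and 0.676 (14) in STAM16w, with the last pair overlapping. Mzb1 was at 3.93 CPM (137 UMIs) in DEN30w, 1.25 (28) in DEN22w, 0.821 (17) in STAM16w and 0.600 (24) in STAM20w, and the intervals of the 3 sections below DEN30w overlapped one another.

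**Figure D1:**
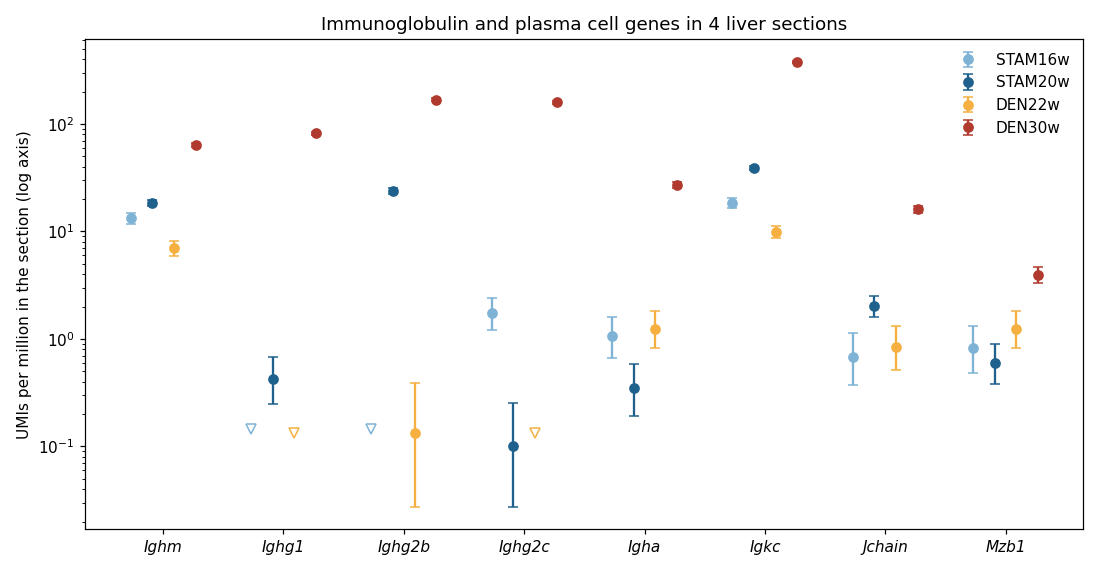
Level of each of the 8 genes in CPM (log axis) in the 4 sections; points are section values, bars are exact Poisson 95% intervals, and open triangles mark sections with 0 UMIs at the level that 3 UMIs would give. DEN30w is highest for all 8 genes, and Igkc reaches 377 CPM there.

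The share of spots with at least 1 chain UMI followed the same order as the levels. It was 91.6% in DEN30w, 29.2% in STAM20w, 16.6% in STAM16w and 12.3% in DEN22w. Since depth per spot differed, spots with at least 2000 UMIs were thinned to 2000 UMIs, which left out 42 to 338 shallower spots a section, and the shares became 63.2%, 7.51%, 4.22% and 4.201%. The binomial 95% intervals of STAM16w (3.39% to 5.185%) and DEN22w (3.455% to 5.05%) then overlapped. In DEN30w, Igkc was seen in 75.1% of spots, Ighg2b in 58.5%, Ighg2c in 56.1%, Ighm in 32.8%, Ighg1 in 32.3%, Igha in 15.3%, Jchain in 11.8% and Mzb1 in 3.94%. No cell type in these sections is free of spot mixing, so no share in a negative cell type could be set beside these. DEN22w, processed alike, gives Ighg1 and Ighg2c in 0 of 2746 spots. That section held 410 chain UMIs in all, so it cannot show how far the chain RNA of DEN30w spreads between spots.

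The later section of each model was then set against the earlier one, as a ratio of CPM with its counting interval. In DEN+CCl4 all 8 genes were higher at 30 weeks, by factors that differed widely. Ighg2c was at least 1187-fold and Ighg1 at least 613-fold higher, each set against 3 UMIs in DEN22w, and Ighg2b was 1262-fold higher (432 to 6121), a ratio that rests on its 3 UMIs in DEN22w. Igkc was 38.2-fold (33.4 to 43.8), Igha 21.8-fold (14.96 to 32.9), Jchain 18.95-fold (12.02 to 31.7), Ighm 9.06-fold (7.70 to 10.7) and Mzb1 3.15-fold (2.09 to 4.92) higher. The interval of Ighm lay below those of Igkc, Igha and Jchain. For scale, 2.58% of the 2906 genes at 50 CPM or more in either section were at least 2-fold higher at 30 weeks and 1.51% at least 2-fold lower, and all 5 members at that level were higher. At 5 CPM or more it was 3.09% and 0.874% of 10071 genes, and 7 of 7 members were higher. The members were chosen with these differences known, so that count says nothing more than their choice.

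In STAM the 8 genes did not differ alike. Ighg2b was at least 164-fold higher at 20 weeks, from 0 UMIs, and Ighg1 at least 2.93-fold higher. Jchain was 2.99-fold (1.685 to 5.72), Igkc 2.13-fold (1.90 to 2.39) and Ighm 1.39-fold (1.21 to 1.61) higher. Ighg2c was lower, by 17.4-fold (6.235 to 67.3), and so was Igha, by 3.04-fold (1.49 to 6.42), while the interval of Mzb1 held 1 (ratio 0.731, 0.376 to 1.45). No member reached 50 CPM in either STAM section, where 7.42% of 2775 genes were at least 2-fold higher at 20 weeks and 3.71% at least 2-fold lower. At 5 CPM or more, 2 of 3 members were 2-fold higher and 0 lower, beside 7.12% and 2.75% of 9943 genes.

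Leaving out the 10 spots with most chain UMIs of each section moved the STAM contrast more than the DEN+CCl4 one. Without them the chain level was 20.1 CPM in STAM16w and 40.95 in STAM20w, and the log2 ratio of 1.26 became 1.03. In DEN+CCl4 the levels became 16.1 CPM in DEN22w and 718 in DEN30w, and the log2 ratio of 5.59 became 5.48. Ighg2b in STAM20w moved from 23.8 to 8.51 CPM.

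The class mix followed the IgG genes. Of the heavy chain UMIs of the 5 classes, IgG (Ighg1, Ighg2b and Ighg2c) made 10.9% (7.74 to 14.7, exact binomial 95% interval) of 331 UMIs in STAM16w, 56.5% (54.15 to 58.9) of 1723 in STAM20w, 1.60% (0.330 to 4.59) of 188 in DEN22w and 81.9% (81.3 to 82.5) of 17413 in DEN30w. Ighm made 82.5% in STAM16w and 83.5% in DEN22w, with overlapping intervals, but 42.7% in STAM20w and 12.7% in DEN30w. So both later sections held the larger IgG share of their model, on very different numbers of UMIs.

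Which IgG class was present differed too. In STAM16w all IgG UMIs were Ighg2c (10.9% of heavy chain UMIs). In STAM20w Ighg2b made 55.3%, Ighg1 0.987% and Ighg2c 0.232%. In DEN30w Ighg2b (33.7%) and Ighg2c (31.8%) were close, with Ighg1 at 16.4%. Igha was at 6.65%, 0.813%, 14.9% and 5.43% in STAM16w, STAM20w, DEN22w and DEN30w, so the highest IgA share, on 28 UMIs, was in the section with the lowest chain level.

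**Figure D2:**
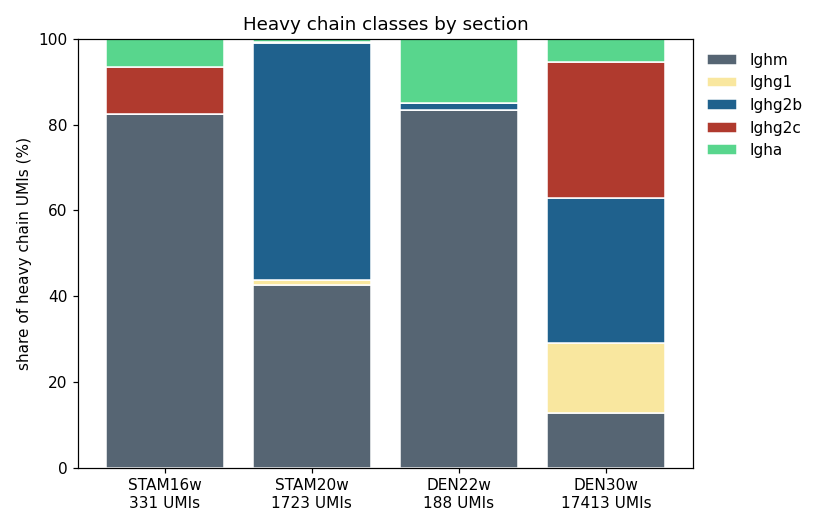
Stacked shares (%) of Ighm, Ighg1, Ighg2b, Ighg2c and Igha in the summed heavy chain UMIs of each section, with the number of UMIs under each bar. IgM is over 80% in STAM16w and DEN22w; the IgG part is nearly all Ighg2b in STAM20w and is spread over 3 classes in DEN30w.

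The STAM20w mix depended on how spots were weighted. Without its 10 richest spots, IgG made 38.1% of heavy chain UMIs, and as a mean over spots with at least 5 heavy chain UMIs it made 45.5%. In DEN30w the share was 81.3% without the 10 richest spots.

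Light chains also differed between sections. Kappa UMIs per heavy chain UMI were 1.15, 0.905, 1.18 and 0.755 in STAM16w, STAM20w, DEN22w and DEN30w. The lambda constant genes Iglc1, Iglc2 and Iglc3 made 27.2% (22.3 to 32.6) of light chain UMIs in DEN22w, 17.2% (13.9 to 21.0) in STAM16w, 4.997% (3.99 to 6.17) in STAM20w and 4.335% (4 to 4.69) in DEN30w. The 2 sections poorest in chain RNA thus had the higher lambda shares. Iglc1 was 23.5-fold (12.6 to 49.5) higher at 30 than at 22 weeks, against 2.29-fold (1.54 to 3.51) for Iglc2 and 1.84-fold (1.28 to 2.69) for Iglc3. Iglc2 and Iglc3 UMIs in STAM16w were spread as single UMIs, at most 2 in a spot.

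Ighd, the heavy chain of IgD that naive B cells carry, was lower in the later section of both models, where all 8 members were higher in DEN+CCl4 and Ighg2c and Igha were lower in STAM. It had 35 UMIs in STAM16w and 20 in STAM20w, 3.38-fold lower (1.90 to 6.18), and 62 in DEN22w and 44 in DEN30w, 2.19-fold lower (1.46 to 3.30). Ighg3, another IgG class, had 2 UMIs in DEN22w and 199 in DEN30w, a ratio of 64.1 (17.5 to 533). Ighe, of IgE, had 0 UMIs in 3 sections and 2 in DEN30w.

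Variable segments were almost unseen. The files list 348 of them, which had 0 UMIs in both earlier sections, 9 in STAM20w and 70 in DEN30w, of which Iglv1 had 54. Of those 54 Iglv1 UMIs, 6 lay in spots with Iglc1 and 27 in spots with Iglc2 or Iglc3. Since so few variable UMIs were counted, the number of B cell clones was not estimated.

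Chain UMIs were gathered most in the STAM sections. The 10 richest spots held 50.3% of the chain UMIs of STAM20w, 41.7% in STAM16w, 18.5% in DEN30w and 12.2% in DEN22w. In STAM20w 1 spot of 18185 UMIs held 592 Ighg2b and 585 Igkc UMIs, with 19 Jchain UMIs, 1 of Ighm and 1 of Ighg2c. Its chain UMIs made 6.48% of its RNA. The next STAM20w spot held 114 Ighm and 101 Igkc UMIs with 15 of Jchain and none of any IgG.

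In STAM16w the richest pair of spots touched each other and held 31 and 66 Ighm UMIs beside 82 and 43 of Igkc, with no other heavy chain. That pair made 31.3% of the section's chain UMIs. A separate STAM16w spot held 16 of the section's 36 Ighg2c UMIs, with 13 of Igkc, and a patch of 5 spots held 12 of its 22 Igha UMIs. In DEN22w no spot held more than 11 chain UMIs, and the highest 3 held 9, 8 and 7 Igkc UMIs with at most 2 of a heavy chain.

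In DEN30w the richest spot held 1459 chain UMIs, 14.6% of its 9969 UMIs, and all 5 heavy chains: 129 of Ighm, 21 of Ighg1, 344 of Ighg2b, 118 of Ighg2c and 88 of Igha. Other spots held nearly 1 class. One had 320 Ighg2c UMIs beside 2 of Ighg2b and 0 of Ighg1, and another had 102 Ighg2b UMIs beside 6 of Ighg2c and 2 of Ighg1. Both spots are among the 10 richest of the section, and how reads were divided between the IgG genes was not tested.

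Among spots with at least 5 heavy chain UMIs, 1 class made at least 80% in 6 of 6 spots in STAM16w and 30 of 32 in STAM20w, but in 152 of 942 (16.1%) in DEN30w; DEN22w had no such spot. In DEN30w 736 of those 942 spots (78.1%) held UMIs of at least 3 classes. The leading class was Ighg2b in 386 spots, Ighg2c in 292, Ighm in 129, Ighg1 in 116 and Igha in 19. Touching pairs of such spots shared their leading class in 714 of 1443 pairs (49.5%) in DEN30w, beside 29.8% from the product of the classes' shares of spots, and in 16 of 17 pairs (94.1%, against 48.2%) in STAM20w.

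Jchain per heavy chain UMI was set between classes in spots where 1 class made at least 80%. In STAM20w it was 85.4 Jchain UMIs per 1000 heavy chain UMIs (52.8 to 130.5) in 16 Ighm spots and 30.7 (19 to 46.9) in 13 Ighg2b spots, intervals that did not overlap. These rest on 1 spot each, with 114 heavy chain and 15 Jchain UMIs for Ighm and 594 and 19 for Ighg2b. Without them the values were 45.45 (16.7 to 98.9) and 22.2 (2.69 to 80.3), and the intervals overlapped. In DEN30w it was 44.4 (23.0 to 77.6) in 12 Ighm spots, 30.3 (6.25 to 88.6) in 4 Igha spots, 26.7 (14.6 to 44.7) in 16 Ighg1 spots, 23.8 (15.4 to 35.1) in 60 Ighg2b spots and 21.2 (13.3 to 32.1) in 60 Ighg2c spots. The DEN30w intervals overlapped, so a class order was not detectable there at this depth. Mzb1 in the same DEN30w spots was 14.3 per 1000 (7.996 to 23.6) with Ighg2b and 2.89 (0.597 to 8.45) with Ighg2c, also overlapping.

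The array position of the chain UMIs separated the sections as well. Of the array neighbours of chain-positive spots, 24.4% were positive in STAM16w, 46.9% in STAM20w and 93.7% in DEN30w, which is 1.47, 1.61 and 1.02 times the share of positive spots, and in DEN22w the factor was 1.16. With at least 3 chain UMIs as the bar, STAM16w had a factor of 12.5, STAM20w 7.06, DEN22w 0 and DEN30w 1.17. After thinning to 2000 UMIs it was 2.10, 2.78, 1.49 and 1.06. So the factor near 1 in DEN30w goes with a section where most spots are positive, and higher bars were needed to see its patches: at 3 or more UMIs the factor was 14.9 for Igha, 12.8 for Jchain, 6.31 for Ighg1, 5.196 for Ighm, 2.27 for Ighg2b, 2.25 for Ighg2c and 1.55 for Igkc.

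The Moran index, which is near 0 when neighbouring spots have unrelated levels, was computed on log CPM for every gene seen in at least 1% of spots. Ighg2b in STAM20w had an index of 0.358, rank 52 of 13166 genes, with Igkc at rank 227, Ighm at 334 and Jchain, at 0.039, at 7292, below the median gene (0.046). In DEN30w Igkc had 0.246, rank 94 of 13070, Ighg2c rank 308, Ighg1 rank 349, Ighg2b rank 864, Ighm rank 1355, Igha rank 2103, Jchain rank 3154 and Mzb1 rank 7195. In STAM16w Igkc was at rank 640 of 12309 and Ighm at 1453. In DEN22w Ighm was at rank 9769 of 12141, with an index of 0.002, below the median gene (0.020). Igkc there was at rank 3373, with an index of 0.039, above the median gene.

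**Figure D3:**
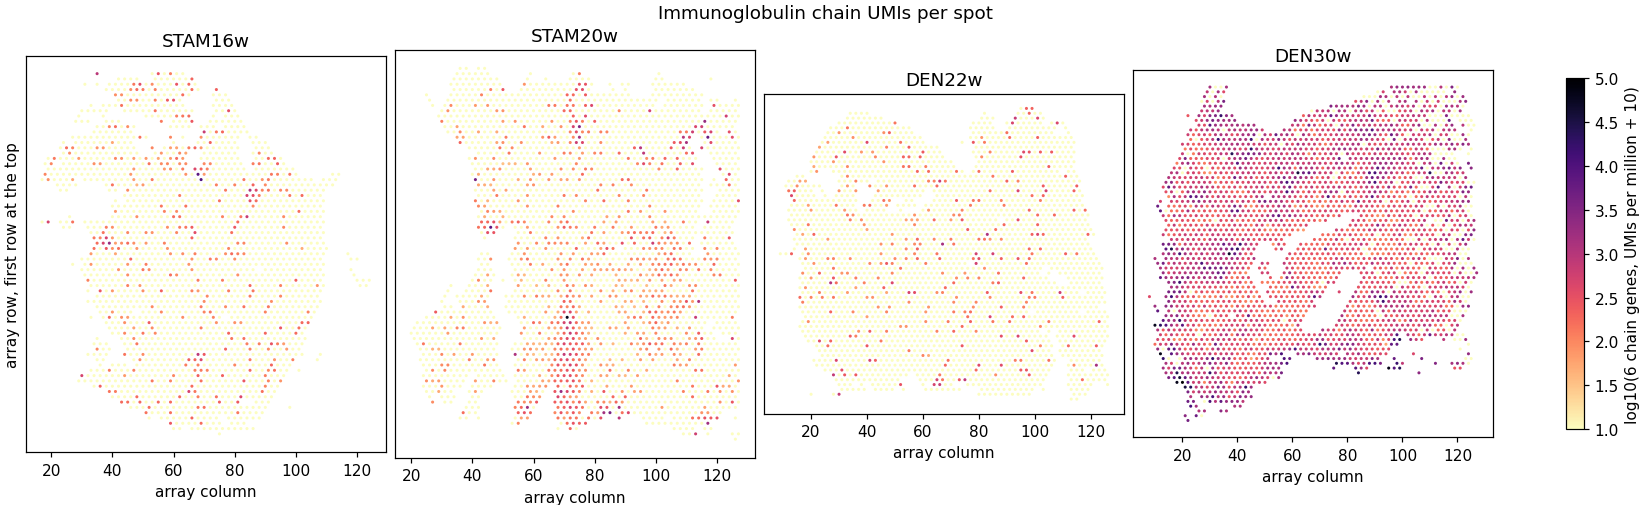
Each dot is a spot at its array position, coloured by log10 of the summed chain CPM plus 10; the 4 panels share the colour scale. Chain RNA has foci in STAM16w and STAM20w, is scattered in DEN22w, and is present over most of DEN30w with darker patches.

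To follow the foci, the 5% of spots with the highest chain share and at least 3 chain UMIs were called immunoglobulin-rich, which gave 25, 85, 11 and 149 spots in STAM16w, STAM20w, DEN22w and DEN30w. The bar was far higher in DEN30w, where the lowest rich spot had a chain share of 0.368% and the highest other spot 0.367%; in STAM16w and DEN22w the 3 UMI minimum set it, and in STAM20w both the share and the minimum did, and rich spots of these 3 sections began at 0.0144% to 0.0198%. Rich spots held 48.3%, 66.0%, 12.9% and 43.7% of the chain UMIs. They formed 17 connected patches in STAM16w and 30 in STAM20w, and 11 in DEN22w against 78 in DEN30w.

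The patches differed in class. The largest, of 29 spots in STAM20w, held 44.2% of that section's chain UMIs, and 97.5% of its 730 heavy chain UMIs were Ighg2b; 592 of these came from its 1 richest spot. A 5-spot patch of STAM20w was 98.5% Ighm. In DEN30w the patch with most chain UMIs had 11 spots and was mixed, at 37.3% Ighg2b, 24.4% Ighm, 16.2% Ighg1, 13.6% Ighg2c and 8.57% Igha of 1354 heavy chain UMIs. A DEN30w patch of 2 spots was 98.3% Ighg2c, and one of 5 spots held 54.6% Ighg2b, 35.5% Ighg1 and 0.186% Ighm.

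Chain level was many times lower 1 array step from a rich spot than in it. In STAM16w it went from 1079 CPM in rich spots to 44.2 at 1 step, 20.9 at 2, 15.8 at 3 to 4 and 15.98 at 5 or more. In STAM20w the values were 1361, 79.2, 46.1, 26.4 and 18.5 CPM, and in DEN22w 495, 33.5, 15.5, 11.9 and 16.2. In DEN30w they were 12349, 954, 563, 421 and 365 CPM, so spots 5 or more steps from any rich spot still held more chain RNA than the section mean of any other section, and 86.1% of those 742 spots held a chain UMI. Rich spots were selected on this level, so the drop from step 0 to step 1 is partly set by the selection. Whether chain RNA far from rich spots came from cells in those spots or spread from others was not tested.

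**Figure D4:**
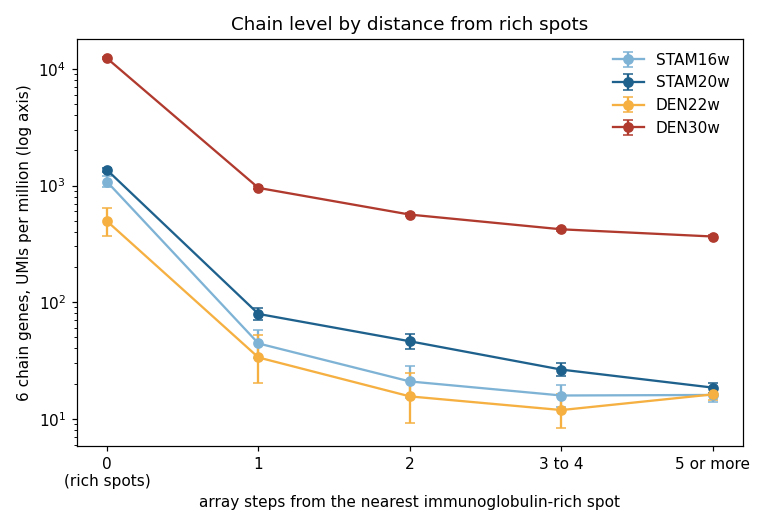
Summed chain CPM (log axis) by array steps from the nearest immunoglobulin-rich spot in each section, with exact Poisson 95% intervals. The level at 5 or more steps is 365 CPM in DEN30w and 15.98 to 18.5 CPM in the other sections.

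Ighg2b and Ighm in STAM20w took different courses around rich spots. Ighg2b went from 484 CPM in rich spots to 20.02 at 1 step, 7.76 at 2, 3.23 at 3 to 4 and 2.32 at 5 or more. Ighm went from 157.7 CPM to 22.4, 22.4, 13.4 and 8.54. Of the 771 Ighg2b UMIs in rich spots, 592 lay in 1 spot, and of the 251 Ighm UMIs 114 did. The Ighg2b level of rich spots and its drop to 1 step thus rest largely on 1 spot. Jchain and Mzb1 UMIs were held in rich spots to unequal degrees: rich spots held 72.8% of the Jchain UMIs of STAM20w and 43.5% of those of DEN30w, and 16.7% and 34.3% of the Mzb1 UMIs, beside 3.98% and 3.10% of all UMIs.

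Where in the tissue the chain RNA lay was read from the summed UMI share of other marker genes, by quintile of spots, an analysis added after the data had been seen. In DEN30w chain level was 427 CPM in the quintile of spots lowest in stellate cell and fibroblast genes and 2813 in the highest, and 434 and 2825 CPM for MHC class II genes. For macrophage genes it was 490 and 2455 CPM. T and NK cell genes gave a flatter course, 835 CPM in the lowest quintile, 621 in the next to highest and 1141 in the highest. Chain level also followed the pericentral share of zonation markers, from 463 CPM in the most periportal quintile to 1840 in the most pericentral.

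All 8 members took part in this course in DEN30w. Between the lowest and highest quintile of fibroblast genes, Ighm was at 37.6 and 196.8 CPM, Ighg1 at 42.1 and 263, Ighg2b at 84.9 and 506, Ighg2c at 83.7 and 503, Igha at 13.2 and 97.3, Jchain at 7.85 and 54.7, and Mzb1 at 1.96 and 12.8. The IgG share of heavy chain UMIs stayed between 80.6% and 84.2% over these quintiles. Depth moved with them: the median was 7107 UMIs per spot in the lowest quintile, 14390 in the next and 6174 in the highest, and its part in the result was not tested.

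MHC class II genes were the list whose highest quintile also had the highest chain level in the 3 other sections. Their lowest and highest quintiles had 13.9 and 67.4 CPM in STAM16w, 46.6 and 249.3 in STAM20w, and 16.4 and 30.02 in DEN22w (54 and 98 chain UMIs). In STAM16w, 109 of the 246 chain UMIs of the highest quintile came from 1 spot, and the level without it was not computed. The STAM20w value rests on the richest spot, which lies in that quintile: without it the highest quintile had 51.1 CPM (45.5 to 57.2), below the 68.9 of the quintile next to the lowest. Without the richest spot of DEN30w the highest quintile there still had 2518 CPM. With all spots kept, no other list had its highest chain level in the highest quintile of every section. In DEN22w the lowest and highest quintiles of macrophage genes had 14.5 (11.3 to 18.3) and 34.1 CPM (28.0 to 41.05), while in STAM16w they had 62.7 and 48.05 CPM. Fibroblast genes gave 55.2 and 60.4 CPM in STAM16w with lower values between. The richest spot of STAM16w, with 113 chain UMIs, lay in the lowest quintile of both lists. Without it those quintiles were at 34.3 CPM (28.8 to 40.6) for macrophage genes and 24.3 (19.5 to 29.9) for fibroblast genes. The spot touching it, with 109 chain UMIs, was kept. It lay in the highest quintile of both lists, which held 183 chain UMIs for macrophage and 224 for fibroblast genes. Levels without both spots were not computed, so no course is read for these lists in STAM16w. In STAM20w the highest value was in the quintile after the lowest for fibroblast genes (160 CPM), the middle one for macrophage genes (177 CPM) and the most periportal quintile of the zonation markers (191 CPM), with 1534, 1582 and 1436 chain UMIs. The richest spot, with 1179, lay in all 3, and without it they were at 37.2, 45.2 and 34.25 CPM.

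**Figure D5:**
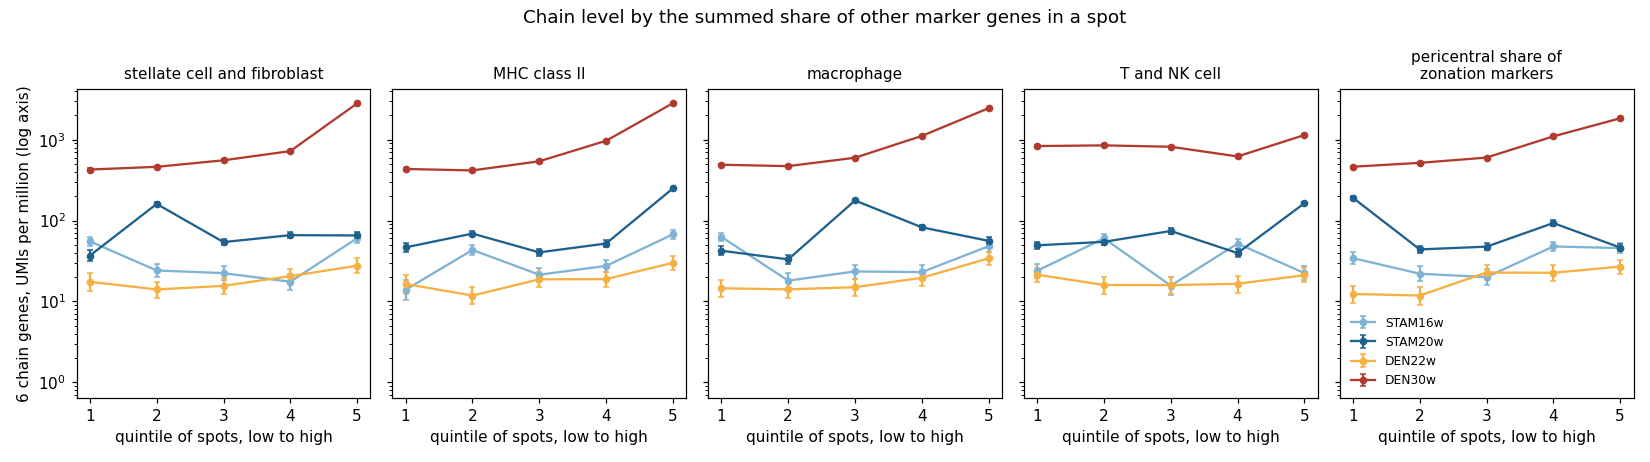
Summed chain CPM (log axis) in quintiles of spots ordered from low to high by the summed share of a marker list, with exact Poisson 95% intervals; colours are the sections. The DEN30w line climbs from 427 to 2813 CPM with fibroblast genes, and the STAM lines have single high points.

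Across spots of a section, correlations with single genes were weak. The genes whose log CPM was most like that of the summed chains, by the mean Pearson r over the 4 sections among 11693 genes, were Cd74 (0.143), which encodes the MHC class II invariant chain, Lect2 (0.121), C1qa (0.116), Lyz2 (0.113), Dcn (0.109), Rack1, Tmsb4x, Rps12, Ugdh and Rps15a. The median gene had 0.034, and spots of a section share their library. In DEN30w alone r was 0.254 for Cd74, and between members it ran from 0.058 (Igha with Mzb1) to 0.296 (Ighg2b with Igkc). These values are those of sparse counts and are given as a description.

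Immunoglobulin-rich spots were then compared with spots of the same section that were low in chain share, did not touch a rich spot and had the nearest depth, to ask which other genes differ where the chain RNA lies. UMIs were added up over the spots of each class within a section, all immunoglobulin segments were left out, and edgeR's quasi-likelihood test with the section as a block was run over 6750 genes, with Benjamini-Hochberg adjustment. The section is the replicate (4 sections). In the matched spots of the 3 other sections there were 0 chain UMIs, but in DEN30w the matched spots had 245 CPM, so the contrast there is between high and lower levels.

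At an adjusted p under 0.05, 1 gene of 6750 was higher in rich spots (0.0148%) and 0 were lower (0%), while 321 genes had an unadjusted p under 0.05. DESeq2 on the same sums called 0, with 60 at an unadjusted p under 0.05. The gene is Slpi, which encodes a secreted inhibitor of leukocyte proteases; it was singled out after its values were seen, since it did not have 1 sign in all 4 sections. Its log2 difference was 2.37 (SE 0.36, edgeR adjusted p = 0.00537), and over its alternatives the adjusted p ran up to 0.9999. DESeq2 gave 1.06 (SE 1.55). In rich and matched spots it had 0 and 0 UMIs in STAM16w, 135 and 69 in STAM20w, 0 and 1 in DEN22w and 470 and 28 in DEN30w. So its call rests on the 2 later sections. Without STAM16w its log2 difference was 2.38 and its edgeR adjusted p 0.154, without the section block they were 2.39 and 0.9999, and without STAM20w or DEN30w it did not pass the filter on low counts.

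Jchain and Mzb1 had too few UMIs to pass the filter on low counts and were not tested in that fit. Their counts in rich against matched spots were 5 and 0 for Jchain in STAM16w, 59 and 0 in STAM20w (at least 19.7-fold, against 3 UMIs), 0 and 0 in DEN22w and 243 and 7 in DEN30w (34.7-fold, 16.6 to 87.3). Mzb1 had 1 and 0, 4 and 1, 2 and 0, and 47 and 1 (47.0-fold, 8.04 to 1896, on 1 matched UMI). So Jchain UMIs lay in the rich spots of both later sections and were not seen in the 11 rich spots of DEN22w.

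MHC class II genes, which present peptides to CD4 T cells, had positive log2 differences for 4 of 4 genes tested, with a median of 0.91 beside -0.02 over all genes tested, and none was called. Over all 6750 genes tested, 3178 were positive. H2-Aa was 0.98 (SE 0.21, edgeR adjusted p = 0.119), and its section values were 0.83 and 0.42 in the STAM and 2.10 and 1.41 in the DEN+CCl4 sections, earlier first. Cd74 was 0.81 (SE 0.20) with -0.18 in STAM20w and 1.52 in DEN30w. Without STAM20w, 23 of 4108 genes were called, among them H2-Aa (1.43), H2-Ab1 (1.39), H2-Eb1 (1.54) and Cd74 (1.42). Without DEN30w the same genes were at 0.56, 0.40, 0.42 and 0.26, and none was called (edgeR adjusted p = 0.9996 for each).

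Stellate cell and fibroblast genes, which include those of fibrous matrix, were positive in 8 of 8 tested (median 0.93), and none was called. Among all 6750 genes tested, 3178 were positive, and 356 were positive in 4 of 4 sections. Their median was -0.38 in STAM20w, but 0.90 in STAM16w, 1.78 in DEN22w and 1.66 in DEN30w. Lum, encoding a collagen-binding proteoglycan, was 1.23 (SE 0.25, edgeR adjusted p = 0.119) and positive in 4 of 4 sections, with 169 UMIs in rich and 44 in matched spots of DEN30w. Col1a1 was 1.13 (SE 0.32) with -0.30 in STAM20w and 2.16 in DEN30w, and it and Lum were among the 23 genes called without STAM20w. Macrophage genes were positive in 13 of 14 tested (median 0.44) and none was called. Their median was -0.15 in STAM16w. C1qa, at 0.69 (SE 0.16), was the 1 gene of the 14 positive in 4 of 4 sections, beside 356 of all 6750 genes.

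Genes of periportal hepatocytes were mostly below 0 in the fit. They were positive in 1 of 15 tested, beside 3178 of all 6750 genes, with a median of -0.20, and none was called. By section the median was -0.78 in DEN30w and -0.0999 in DEN22w, but 0.03 in STAM16w and 0.05 in STAM20w. Pck1, for glucose synthesis, was -0.43 (SE 0.15) and Hal, for histidine breakdown, -0.38 (SE 0.15), the 2 genes of the list below 0 in 4 of 4 sections. Over all 6750 genes, 555 were below 0 in 4 of 4 sections. Without DEN30w Pck1 and Hal were at -0.12 and -0.06. Plasma cell genes other than the members, most of them secretory pathway genes that hepatocytes also express, had 11 of 26 tested, 6 of them positive, with a median of 0.01. T and NK cell genes had 0 of 20 above the filter.

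Values that move with spot class are given beside these counts. In STAM20w the mitochondrially encoded share was 5.97% in rich and 3.61% in matched spots, beside 2.23% and 2.19% in STAM16w, 1.18% and 1.34% in DEN22w and 1.41% and 1.57% in DEN30w. Rich spots of DEN30w had a median of 5535 UMIs against 9423 in the section, and those of STAM20w 19233 against 12761, and matching was on depth within the section. The 4 haemoglobin genes tested had a median log2 difference of 3.31 in STAM16w, where Hbb-bs had 323 UMIs in rich and 30 in matched spots, and of 0.14 in STAM20w, 0.54 in DEN22w and -1.84 in DEN30w. Whether these bear on the differences was not tested.

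The difference between models in the rich against matched contrast was called for 0 of 6750 genes by edgeR (0% in either direction), with 383 at an unadjusted p under 0.05, and for 0 by DESeq2, with 30. There were 2 sections per model, and DEN22w had 11 rich spots. Leaving out DEN22w gave 60 genes and setting comparison spots within 2 to 5 steps gave 11.

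Other genes of the plasma cell programme were looked at by section. Of 26 plasma cell genes beside the members, 13 reached 5 CPM in a DEN+CCl4 section, of which 2 were at least 2-fold higher at 30 weeks and 0 lower, beside 3.09% and 0.874% of all genes at that level. These were Derl3, a gene for the disposal of misfolded proteins (9.84 and 37.1 CPM, 3.77-fold, 3.27 to 4.37), and Creld2, an endoplasmic reticulum stress gene (178 and 406 CPM, 2.28-fold). Rich spots held 3.25% of the Derl3 UMIs of DEN30w, beside 3.10% of all UMIs. In STAM 1 of 12 was higher, Creld2 (2.95-fold), and 1 lower, Derl3 (0.219, 0.165 to 0.287), beside 7.12% and 2.75% of all genes. Irf4, a plasma cell transcription factor, had 7, 14, 11 and 57 UMIs, and Pou2af1 11, 7, 10 and 28.

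B cell genes differed among themselves. At 5 CPM or more, 1 of 3 genes was at least 2-fold higher at 30 weeks and 0 lower, beside 3.09% and 0.874% of all genes. In STAM it was also 1 of 3 higher and 0 lower, beside 7.12% and 2.75%. Of the 18 listed, the interval of the later over earlier ratio lay above 1 for 4 and below 1 for 1 in DEN+CCl4, and above 1 for 2 and below 1 for 7 in STAM. The share of all genes with such intervals was not computed, so these counts are not read further. With an interval above 1, DEN30w had Ly6d (5.30-fold, 4.998 to 5.63), Bank1 (2.03-fold, 1.40 to 3.01), Cd37 (1.73-fold, 1.38 to 2.17) and Cd22 (1.46-fold, 1.05 to 2.04). STAM20w had Ly6d (3.79-fold, 3.68 to 3.895) and Vpreb3 (1.48-fold, 1.16 to 1.90). Cd79a, part of the B cell receptor, had 54 UMIs (2.61 CPM) in STAM16w and 38 (0.9498) in STAM20w, and 53 (2.36) in DEN22w against 73 (2.09) in DEN30w, and its DEN30w over DEN22w ratio of 0.887 (0.615 to 1.29) held 1. In STAM it was lower at 20 weeks (0.364, 0.234 to 0.562). Of the 18 genes of this list, Ly6d had 10245 of 11490 UMIs in DEN30w and 39692 of 40866 in STAM20w, so the summed list reads as Ly6d. Of the Cd79a UMIs of DEN30w, 30.1% lay in rich spots.

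Of 13 genes of lymphoid structures, 3 reached 5 CPM in a DEN+CCl4 section. At 30 weeks 1 of them was at least 2-fold higher and 0 lower. In STAM 2 reached that level, with 0 higher and 1 lower. For all genes it was 3.09% and 0.874% in DEN+CCl4, and 7.12% and 2.75% in STAM. Bcl6 was at 72.9 CPM in DEN30w (1.32-fold, 1.23 to 1.41) and lower at 20 weeks in STAM (0.2755, 0.234 to 0.324). Il21, a T cell cytokine that acts on B cells, had 0 UMIs in all 4 sections. Cxcl13, a chemokine that attracts B cells, had 12, 45, 5 and 439 UMIs in STAM16w, STAM20w, DEN22w and DEN30w, 56.6-fold (24.1 to 175) higher in DEN30w than in DEN22w. It was not gathered in the chain foci: 12 of its 439 UMIs (2.73%) were in rich spots, which hold 3.10% of all UMIs, and no spot held more than 5.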

How the data were processed

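The deposited files hold raw UMI counts per gene and spot; per the submitters' processing notes they were made with Space Ranger 1.3.1 and STAR against mm10, and the counts were used as the authors deposited them. Spots over tissue with at least 500 UMIs and 250 genes were kept. The 8 members and the 21 gene lists, as well as the rich spot rule, were chosen with earlier results of these data known. Levels are summed UMIs per 1000000 with exact Poisson intervals, shares have exact Clopper-Pearson intervals, and a count of 0 was set at 3 UMIs for bounds. Rich spots were matched to spots with other UMIs within 0.1 on the log10 scale, and 392 immunoglobulin segments stayed out of the fit. edgeR 4.0.16 (TMM, filterByExpr) in R 4.3.3 was the test, tested on simulated data, and DESeq2 1.42.0 the alternative. The labels do not say that the sections are of separate animals. With the section as a block, p-values set the rich against matched difference against its spread over these sections, and not against a spread between animals. Named genes were the members, list genes, and genes past the threshold with 1 sign in 4 of 4 sections, which none met. Names and positions came from RefSeq (GRCm38.p6). Alternatives covered the spot filter, denominator, richest spots, spot weight, cutoffs, matching, tool and left-out sections; a minimum of 5 CPM, the tissue quintiles, the patches and the values without the richest spot were added after the data had been seen. The fit pairs rich and matched spots by section; sections of different groups were not paired.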

Additional observations from a re-analysis of the deposited data

Results flagged for a closer look

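Ighg2c and Igha differed between the models in the direction of their later over earlier ratio. Ighg2c in STAM20w was 0.0575 of its STAM16w level (4 against 36 UMIs), whereas in DEN+CCl4 it was at least 1187-fold higher at 30 weeks. Igha in STAM20w was 0.329 of its STAM16w level (14 against 22 UMIs) and was 21.8-fold higher in DEN30w than in DEN22w. With 1 section per model and time the difference was not tested. In STAM16w, 16 of the 36 Ighg2c UMIs came from 1 spot.

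Chain UMIs were also present in spots that the minimum depth left out. The 62 such spots of STAM20w held 5 chain UMIs of 17657 UMIs, or 283 CPM (92.0 to 661), and the 105 such spots of DEN30w held 26 of 28773, or 904 CPM (590 to 1324). The DEN30w interval holds the level of the kept spots, 876 CPM, and the STAM20w interval lies above that section's 82.0 CPM.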

How the results depend on the processing

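The chain level of DEN30w stayed the highest and its IgG share the largest of the 4 sections under all alternatives run. DEN22w had 410 chain UMIs and 11 rich spots, so its shares have wide intervals. Of the values that moved past their counting interval, chain levels without the 10 richest spots were 718 CPM in DEN30w, 40.95 in STAM20w, 20.1 in STAM16w and 16.1 in DEN22w. As a mean over spots they were 72.8 in STAM20w, 21.8 in DEN22w and 1203 in DEN30w, and without mitochondrial, haemoglobin and immunoglobulin genes in the total they were 85.2 in STAM20w and 891 in DEN30w. The IgG share without the 10 richest spots was 38.1% in STAM20w and 81.3% in DEN30w; as a mean over spots it was 33.3% in STAM16w (6 spots) and 45.5% in STAM20w. The chain ratio of STAM without the 10 richest spots was 1.03 on the log2 scale.

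The neighbour factor at 3 or more UMIs was 12.5, 7.06, 0 and 1.17 in STAM16w, STAM20w, DEN22w and DEN30w, and thinned 2.10, 2.78, 1.49 and 1.06; without the spot filter it was 1.04 in DEN30w.

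The count of genes called in rich spots (1 by edgeR) was 0 with DESeq2, with the highest 2% of spots and without the section block, 49 without the filter on low counts, 41 with the highest 10% of spots, and 3 with all genes in the fit, of which Igkc and Ighm had chosen the spots. Without 1 section it ran from 0 (without STAM16w or DEN30w) to 23 (without STAM20w). The difference between models (0 genes) was called for 38 genes without the filter on low counts, 1 with the highest 2% and 21 with the highest 10% of spots, 11 with comparison spots within 2 to 5 steps and 4 without the spot filter, and for 0 to 60 without 1 section. The cause of these moves was not tested. Rich and matched spots are paired by section through the block. Between sections, no paired analysis was possible because each group has 1 section and the labels give no shared replicate numbers.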
